A study of Mus musculus with 48 samples.

Results

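The response of mouse monocyte-derived dendritic cells (moDC) to the lipopeptide PAM was followed in 5 libraries, taken by name from a table of 32 stimulation libraries in a series of 48 samples. Cells were treated with 100 ng/ml of PAM for 1, 2, 4 or 6 h, and the untreated library (NT) is the baseline of the same culture type. The 4 matching LPS libraries, at 100 ng/ml and the same hours, were used for comparison. All came from bone marrow of C57BL/6J female mice aged 6 to 10 weeks, which was grown with GM-CSF, a growth factor that drives marrow cells towards monocyte-like dendritic cells and macrophages. The labels do not give the number of mice behind a library, and each time is 1 library. The rest of the 32 stimulation libraries helped to estimate the spread in the tests below. They are moDC treated with CpG A or CpG B at 5 uM, and plasmacytoid dendritic cells grown with Flt3 ligand, untreated or with the same ligands. The latter also enter a comparison near the end. RNA was read at the 3′ ends of polyadenylated transcripts, so 1 transcript gives reads at 1 end and the values are not divided by gene length.

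PAM, which the labels also write as PAM3CSK, is a synthetic bacterial-type lipopeptide sensed by Toll-like receptor 2 (TLR2) working with TLR1. The receptor signals through the adaptor MyD88 to IRAK and TRAF6, to NF-kB and to MAP kinases, which switch on inflammatory genes and, among them, the inhibitors that limit the same signal. LPS is sensed by TLR4, which uses MyD88 and also the adaptor TRIF, the route known for switching on interferon beta through IRF3 and, through secreted interferon, the interferon-stimulated genes.

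The 5 libraries held 401755 to 537177 counts, and levels are given as CPM (counts per 1e6) with edgeR's TMM scaling. On that scale a single count is worth 2.00 to 2.38 CPM. For a gene with 0 counts the upper limit, taken as 3 counts, is 6.00 to 7.14 CPM, the highest being that of NT, which is the floor used for folds below. Markers of the labelled cells were present in each of the 5 libraries: Lyz2, the macrophage lysozyme, lay at 20035 to 25137 CPM, Csf1r, the receptor for M-CSF, at 587 to 813 CPM and the integrin Itgax (CD11c) at 697 to 1488 CPM. Flt3, the receptor on which classical and plasmacytoid dendritic cells (pDC) depend, had at most 6.62 CPM, and the pDC lectin Siglech at most 4.53 CPM. B cell, T cell and NK cell lists summed to at most 26.5, 20.5 and 19.0 CPM. Granulocyte transcripts were abundant and uneven. The neutrophil and granule list summed to 11540 CPM in NT and 13770, 11610, 18310 and 9267 CPM at 1, 2, 4 and 6 h of PAM, so that the 4 h and 6 h libraries held the highest and the lowest sum of the 16 moDC libraries. The list for basophils, mast cells and eosinophils did the same, with 2162 CPM in NT and 2624, 2341, 3881 and 1726 CPM at 1, 2, 4 and 6 h. Of 17 tested neutrophil genes 16 were higher at 4 h than at 6 h, against 4066 of all 8056 genes tested. In bulk samples fewer cells of a type and less RNA per cell cannot be told apart, and the part of these cells in the results below was not tested.

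**Figure D1:**
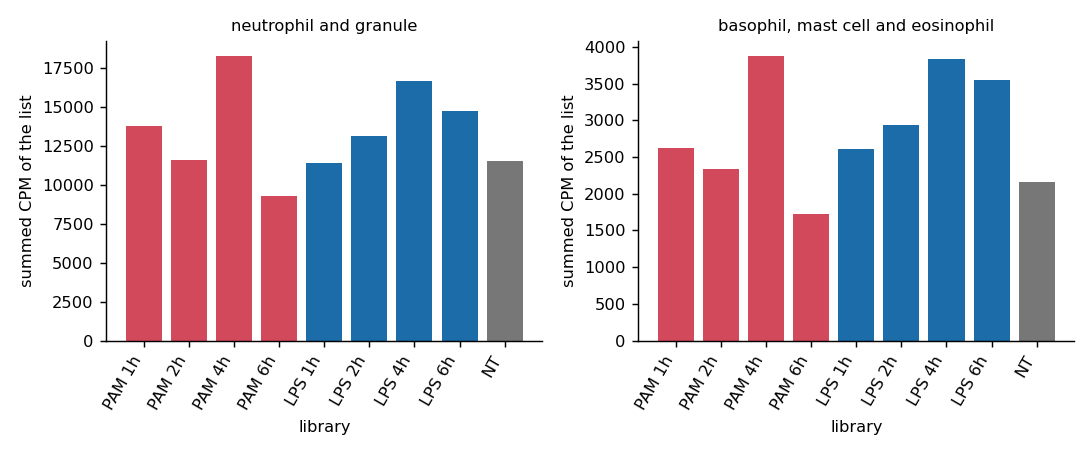
Summed TMM-scaled CPM (vertical axis) of the neutrophil and granule list and of the list for basophils, mast cells and eosinophils in each moDC library of PAM, LPS and NT, 1 bar per library. The neutrophil sum is 18310 CPM at 4 h and 9267 CPM at 6 h of PAM, on either side of the LPS libraries and of NT at 11540 CPM.

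At each hour of PAM more genes were past a fold of 4 above NT than below it. Each hour was set against NT among genes with at least 100 CPM in either library, and a gene was counted when its ratio, with 10 CPM added to both, passed a fold of 4. With 1 library per time these counts are a description with no test. At 1 h, 10 genes were past the fold upwards (0.516% of 1938 genes) and 0 downwards. At 2 h there were 53 up (2.63%) and 1 down (0.0496%), at 4 h 60 up (2.87%) and 3 down (0.144%), and at 6 h 45 up (2.18%) and 5 down (0.242%). Scaled by column totals instead, 39 were up and 9 down at 4 h. At a fold of 2 there were 261 up and 66 down at 4 h, and 215 up and 84 down at 6 h. Over the 4 hours 89 genes passed upwards (3.81% of 2337) and 7 downwards (0.3%), and 0 did both. Genes just inside and just outside the fold at 1 h were Zfp36 (log2 ratio 2.14) and Ppp1r15a (1.93), the second named only as the nearest gene below it.

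The upward genes passed the fold at different hours. Of the 89, 10 first passed the fold at 1 h, 44 at 2 h, 25 at 4 h and 10 at 6 h. The highest level was at 1 h for 1 gene, at 2 h for 34, at 4 h for 32 and at 6 h for 22. In 51 of the 89 the highest hour stood above the next highest by more than counting error (exact binomial 95% interval of the ratio excluding 1). That held for 17 of the 34 genes highest at 2 h, 16 of the 32 highest at 4 h and 17 of the 22 highest at 6 h, so the hour assigned to the others is not resolved at this depth. Picking the highest hour from the same counts favours such a gap. Responses differed in length too: 45 genes were past the fold at 1 of the 4 hours, 15 at 2, 23 at 3 and 6 at all 4. Of the 34 highest at 2 h, 8 were back within a fold of 2 of NT at 6 h and 12 were still past a fold of 4. Between neighbouring libraries, 101 genes were higher and 19 lower by a fold of 2 at 2 h than at 1 h, whereas 13 were higher and 52 lower at 6 h than at 4 h.

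**Figure D2:**
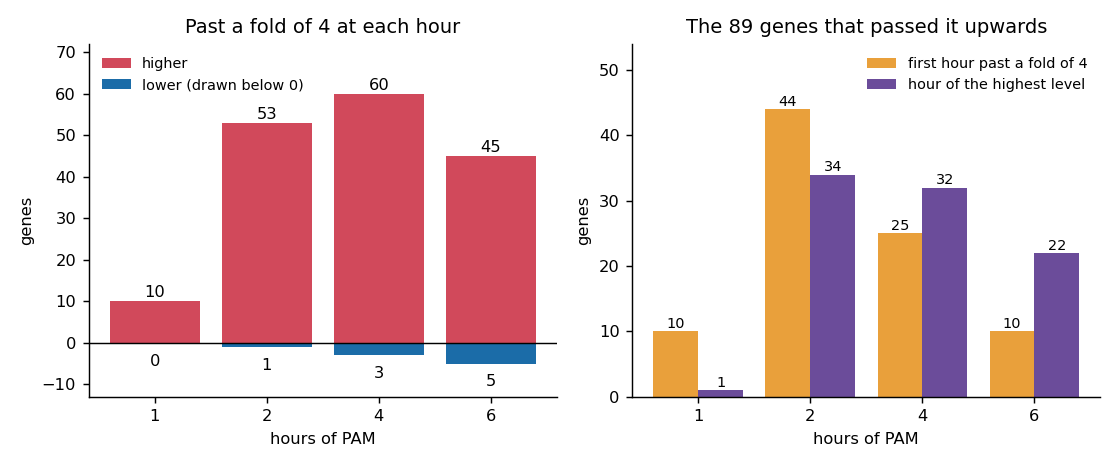
Left, number of genes (vertical axis) past a fold of 4 above NT or, below 0, under NT at each hour of PAM. Right, the 89 genes that passed upwards, by the first hour past the fold and by the hour of their highest level; 44 first passed at 2 h, and the highest levels spread over 34 genes at 2 h, 32 at 4 h and 22 at 6 h.

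The 10 genes of the first hour were mostly cytokines, a pair of neutrophil-attracting chemokines and inhibitors of the signal. Tnf, the cytokine that starts much of acute inflammation, had 221 CPM in NT and 4908, 7368, 5150.5 and 3003 CPM at 1, 2, 4 and 6 h. Cxcl1, a ligand of the neutrophil receptor Cxcr2, had 19.0 CPM in NT and 430.4, 1053, 539 and 260 CPM at 1, 2, 4 and 6 h. Its neighbour Cxcl2 had 338 CPM in NT and 4992, 12133, 9436 and 4667 CPM at 1, 2, 4 and 6 h. All of these were highest at 2 h and lower at each hour after it. Even at 6 h Tnf stood 13.6-fold above NT (95% counting interval 11.0 to 16.9) and Cxcl2 13.8-fold (11.7 to 16.5). The interleukins Il1b and Il1a kept their levels instead. Il1b had 269 CPM in NT and 1653, 9301, 9067 and 8896 CPM at 1, 2, 4 and 6 h. Il1a had 59.5 CPM in NT and 458, 1324, 1049 and 1148 CPM at 1, 2, 4 and 6 h. Their 3 later libraries lay close together.

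Among the inhibitors, Zfp36, which encodes a protein that destabilises cytokine mRNA, was past the fold at 1 h alone. It had 40.4 CPM in NT and 212, 86.0, 44.2 and 47.1 CPM at 1, 2, 4 and 6 h. That was 5.25-fold above NT at 1 h (3.13 to 9.34) and 1.09-fold at 4 h (0.543 to 2.22). Tnfaip3, encoding the ubiquitin-editing enzyme A20 that limits NF-kB, had 14.3 CPM in NT and 190.2, 201, 121 and 71.6 CPM at 1, 2, 4 and 6 h. Socs3, an inhibitor of cytokine receptor signalling, had 61.9 CPM in NT and 536, 838, 567 and 530.2 CPM at 1, 2, 4 and 6 h. Of these inhibitors, Zfp36 returned to NT within the interval, Tnfaip3 declined after 2 h and Socs3 stayed high. The remaining genes of the first hour were Osm, a cytokine of the IL-6 family (19.0 CPM in NT and 126, 156, 117 and 57.3 CPM at 1, 2, 4 and 6 h), and Rasgef1b, a Ras-pathway exchange factor (23.8 CPM in NT and 140.1, 211, 192 and 73.7 CPM at 1, 2, 4 and 6 h).

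Other cytokines and chemokines, and the receptor Cd40, gained most after the first hour. Il12b, the p40 subunit shared by IL-12 and IL-23, had 45.2 CPM in NT and 172, 1618, 2620.5 and 2168 CPM at 1, 2, 4 and 6 h, 58.0-fold above NT at 4 h (37.0 to 96.6). Tnfsf15, a TNF family ligand, had 0 counts untreated, then 14.0, 204, 144 and 51.2 CPM at 1, 2, 4 and 6 h, at least 28.5-fold above the floor of 3 counts in NT at 2 h. Both gained most between 1 and 2 h, and Il12b held its level to 6 h while Tnfsf15 did not. The inflammatory chemokines Ccl3 and Ccl4 had similar profiles. Ccl3 had 236 CPM in NT and 847, 3384, 4007 and 2812 CPM at 1, 2, 4 and 6 h. Ccl4 had 205 CPM in NT and 645, 3305, 3073 and 1787 CPM at 1, 2, 4 and 6 h. Cd40, the receptor through which T cells license dendritic cells, had 35.7 CPM in NT and 50.0, 292, 495 and 409 CPM at 1, 2, 4 and 6 h. Il6, the fever and acute-phase cytokine, had 2.38 CPM in NT and 14.0, 92.8, 113 and 67.5 CPM at 1, 2, 4 and 6 h. Both were highest at 4 h.

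Genes that climbed to 4 h included a further set of inhibitors. Zc3h12a, encoding the RNase Regnase-1 that degrades cytokine mRNA, had 35.7 CPM in NT and 132, 385, 446 and 383 CPM at 1, 2, 4 and 6 h. Irak3 (IRAK-M), a pseudokinase that restrains MyD88 signalling, had 19.0 CPM in NT and 42.0, 86.0, 209.7 and 192 CPM at 1, 2, 4 and 6 h. Cav1, encoding the caveola protein caveolin-1, was no higher than NT at 1 h and stepped up between 2 and 4 h, with 19.0 CPM in NT and 14.0, 34.0, 183 and 178 CPM at 1, 2, 4 and 6 h. Together with Zfp36 and Tnfaip3 these inhibitors had their highest levels at 1, 2 and 4 h. Only for Zfp36 was that hour well apart from the others. Tnfaip3 was alike at 1 and 2 h, Irak3 at 4 and 6 h, and Zc3h12a differed little from 2 to 6 h. Their single highest hours are therefore not resolved at this depth.

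Of the 22 genes highest at 6 h, 13 were in no list, where 95.2% of all genes tested were in none. The lists were chosen with earlier results of these data known, so this contrast does not test them. The 22 also come from genes with at least 100 CPM, a different set from the genes tested. The 6 described here are neutrophil factors, genes of the matrix and an acute-phase gene, and some of them were well above NT by 2 h. Csf3 (G-CSF), the growth factor of neutrophils, was at 0 counts untreated and at 1 h and then had 63.4, 110.4 and 186 CPM at 2, 4 and 6 h, at least 26.1-fold above the NT floor at 6 h. Cxcl5, a ligand of Cxcr2 like Cxcl1, had 0 counts untreated and 22.0, 52.1, 126 and 169.9 CPM at 1, 2, 4 and 6 h, at least 23.8-fold above the NT floor at 6 h. Cxcl3, of the same family, had 426 CPM in NT and 1163, 5109, 7870.4 and 9627 CPM at 1, 2, 4 and 6 h, still the highest at 6 h while Cxcl1 and Cxcl2 had passed their highest level at 2 h. Mmp13, a collagenase, had 1 count untreated and 30.0, 181, 254 and 391 CPM at 1, 2, 4 and 6 h, a ratio of 164 at 6 h with a wide counting interval (29.1 to 6525). Saa3, an acute-phase protein, had 64.2 CPM in NT and 142, 638, 889.7 and 2084 CPM at 1, 2, 4 and 6 h. Timp1, an inhibitor of matrix proteases, had 19.0 CPM in NT and 30.0, 72.4, 135 and 184 CPM at 1, 2, 4 and 6 h. That each was higher at 6 h than at 4 h follows from choosing genes highest at 6 h. For 17 of the 22 the 6 h level stood above the next highest by more than counting error, which picking the highest hour also favours.

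**Figure D3:**
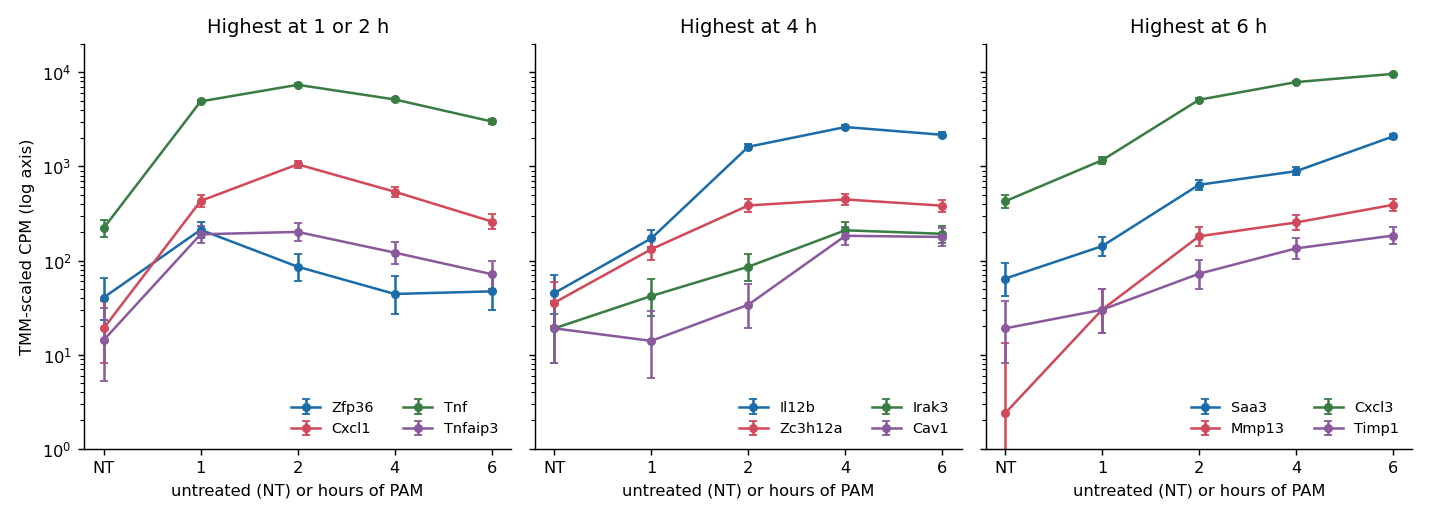
TMM-scaled CPM (log axis) of 12 genes in NT and at 1, 2, 4 and 6 h of PAM, 1 library per point, with exact Poisson 95% intervals (counting error only), in panels by the hour of the highest level. Zfp36 is at 212 CPM at 1 h and back at 44.2 CPM at 4 h, Il12b levels off after 4 h at 2620.5 CPM, and Saa3 is at 2084 CPM at 6 h.

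Below NT, 7 genes passed a fold of 4 at some hour, and 6 of them are described here. Klf4, a transcription factor of monocyte differentiation, had 105 CPM in NT and 48.0, 9.05, 8.83 and 12.3 CPM at 1, 2, 4 and 6 h, 0.0865 times NT at 2 h (0.0226 to 0.238). Ccr2, the receptor that brings monocytes out of marrow, had 412 CPM in NT and 328, 188, 94.9 and 137 CPM at 1, 2, 4 and 6 h. Asgr2, a subunit of the asialoglycoprotein receptor, had 257 CPM in NT and 182, 169.8, 68.4 and 38.9 CPM at 1, 2, 4 and 6 h. Cd300a, an inhibitory receptor, had 124 CPM in NT and 110.1, 95.1, 46.4 and 20.5 CPM at 1, 2, 4 and 6 h. Gda, a guanine deaminase, had 169 CPM in NT and 128, 81.5, 64.0 and 26.6 CPM at 1, 2, 4 and 6 h. Each of these genes was lower at 2, 4 and 6 h than at 1 h. In the late test described next, Klf4 (log2 fold change -3.27 ± 0.84 SE, adjusted p = 0.0619) and Ccr2 (log2 fold change -1.82 ± 0.48 SE, adjusted p = 0.0709) missed the threshold. P2ry6, a receptor for extracellular UDP, was the exception, with 109 CPM in NT and 104, 36.2, 15.5 and 168 CPM at 1, 2, 4 and 6 h, lowest at 4 h and above NT at 6 h.

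To test the response, the 4 and 6 h libraries were taken as a late pair and the 1 and 2 h libraries as an early pair, and each was set against NT in edgeR, with its two-sided quasi-likelihood F test. A call needs an adjusted p under 0.05 (Benjamini-Hochberg over 8056 genes) and a change of 2-fold or more. All late and early calls share the NT library. Late PAM called 53 genes higher (0.658% of those tested) and 24 lower (0.298%; 0.956% in either direction), and early PAM called 6 higher (0.0745%) and 0 lower. The early calls were Socs3, Cxcl1, Tnf, Il1a, Cxcl2 and Il1b, with log2 fold changes of 3.47 ± 0.52, 5.26 ± 0.93, 4.79 ± 0.82, 3.90 ± 0.64, 4.66 ± 0.80 and 4.35 ± 0.86 (SE) and adjusted p from 0.00431 (Socs3) to 0.0431 (Il1b). With column totals in place of TMM scaling, 51 were higher and 55 lower late, and the median of all genes moved to -0.21, against 0.03. The late calls depend on both libraries: without 4 h 25 genes were higher and 6 lower, and without 6 h 12 and 1. For early PAM the count was 14 without 1 h and 1 without 2 h. No group has a replicate library, so the spread comes from neighbouring hours and the lone NT library is assumed to vary like the others; p-values measure the spread between these libraries only. Of the 89 genes past a fold of 4 at some hour 31 were called late and 58 were not, and the 58 include Il12b (log2 fold change 5.72 ± 1.50 SE, adjusted p = 0.069) and Saa3 (log2 fold change 4.53 ± 1.17 SE, adjusted p = 0.0641).

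Cytokines had a high late median. Of 19 inflammatory cytokines tested (22 in the list), 5 rose late (Il1b, Il1a, Tnf, Inhba and Csf3), 0 fell, and the median log2 fold change was 4.05, against 0.03 over all genes tested. Early, 3 of the 19 were called and the median was 3.56. With 10 CPM added to both libraries, the median log2 ratio to NT was lower, at 0.93, 2.52, 2.13 and 1.44 at 1, 2, 4 and 6 h. The fitted medians are therefore no estimate of a typical fold, as some members were near 0 counts in NT. Il1b gave the larger fold (log2 fold change 5.06 ± 0.89 SE, adjusted p = 0.00593), with Il1a near it (log2 fold change 4.20 ± 0.65 SE, adjusted p = 0.00348). Inhba, the subunit of activin A, had 88.0 CPM in NT and 176, 896, 1508 and 1105 CPM at 1, 2, 4 and 6 h (log2 fold change 3.89 ± 0.83 SE, adjusted p = 0.0235). The fitted value of Csf3 (log2 fold change 8.98 ± 2.13 SE, adjusted p = 0.0425) rests on an untreated count of 0 and is no estimate of its fold. In the other direction within the list stood Il15, a cytokine of NK and memory T cells, at 21.4 CPM in NT and 26.0, 4.53, 8.83 and 18.4 CPM at 1, 2, 4 and 6 h (log2 fold change -0.63 ± 1.08 SE, adjusted p = 0.861).

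Chemokines for neutrophils and monocytes followed. Of 18 tested (20 in the list), 5 rose late (Cxcl1, Cxcl2, Cxcl3, Cxcl5 and Ccl3), 0 fell, and the median was 1.45. Cxcl2 (log2 fold change 4.38 ± 0.79 SE, adjusted p = 0.0072) and Cxcl3 (log2 fold change 4.36 ± 0.89 SE, adjusted p = 0.019) rose by like amounts, and Ccl3 somewhat less (log2 fold change 3.85 ± 0.90 SE, adjusted p = 0.0366). Ccl2, the ligand of Ccr2, did not follow this order: it had 174 CPM in NT and 454, 652, 119 and 534 CPM at 1, 2, 4 and 6 h, so its 4 h library lay below NT and its 6 h library above it. Cxcl9, an interferon-gamma-induced chemokine, had at most 4.76 CPM. Cxcl1, Cxcl2 and Cxcl3 are similar in sequence and may share reads, which makes their single values uncertain.

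The promoters of these 3 chemokines, which lie close together on chromosome 5, are shown because their kinetics differ while their starts share a motif. Sequences are from RefSeq (build GRCm38.p6), 250 bases before to 50 after the gene's start, printed on the gene's strand, with matches to the kB consensus (the NF-kB binding motif, searched on both strands; overlapping matches of the palindromic site merge) in capitals. Cxcl1 is on the plus strand at chr5:90890995-90891294, Cxcl2 on the plus strand at chr5:90903649-90903948 and Cxcl3 on the plus strand at chr5:90785851-90786150.
Cxcl1: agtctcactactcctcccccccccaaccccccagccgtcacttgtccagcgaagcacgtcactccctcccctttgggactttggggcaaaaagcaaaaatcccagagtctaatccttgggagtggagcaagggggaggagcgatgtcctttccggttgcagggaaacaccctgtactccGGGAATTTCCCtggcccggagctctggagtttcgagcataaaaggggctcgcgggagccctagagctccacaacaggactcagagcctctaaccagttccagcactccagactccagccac
Cxcl2: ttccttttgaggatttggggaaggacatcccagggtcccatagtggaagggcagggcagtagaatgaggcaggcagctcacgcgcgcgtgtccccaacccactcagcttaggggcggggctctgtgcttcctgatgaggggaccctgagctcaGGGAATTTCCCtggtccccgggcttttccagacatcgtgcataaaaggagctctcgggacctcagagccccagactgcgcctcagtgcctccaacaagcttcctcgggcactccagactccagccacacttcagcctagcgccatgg
Cxcl3: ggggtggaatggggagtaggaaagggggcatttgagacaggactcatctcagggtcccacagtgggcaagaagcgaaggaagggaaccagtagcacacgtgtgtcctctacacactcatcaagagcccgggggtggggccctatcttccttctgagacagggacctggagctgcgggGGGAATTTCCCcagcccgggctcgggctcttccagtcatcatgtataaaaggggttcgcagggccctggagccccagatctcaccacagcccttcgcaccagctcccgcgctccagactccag
Each holds the same 11 bases, GGGAATTTCCC, although Cxcl3 was highest at 6 h and the other pair at 2 h. Of the 35 genes highest at 1 or 2 h, 24 had a promoter in the table and 8 of those (33.3%) held the kB consensus, as did 4 of 25 (16%) highest at 4 h and 4 of 15 (26.7%) highest at 6 h. Over all 27025 genes with a promoter the share was 9.55%. A match is a description of the letters and not a shown binding site.

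Inhibitors and subunits of NF-kB all had positive late values. Of 20 tested (21 in the list), 3 rose late (Socs3, Irak3 and Zc3h12a), 0 fell, and the median was 1.34. Their folds were close, at log2 fold change 3.53 ± 0.61 SE, adjusted p = 0.00523 for Zc3h12a, log2 fold change 3.38 ± 0.57 SE, adjusted p = 0.00487 for Irak3 and log2 fold change 3.14 ± 0.52 SE, adjusted p = 0.00487 for Socs3. Nfkbia, the IkB-alpha inhibitor that NF-kB itself induces, had 621 CPM in NT and 2004, 2316, 1848 and 1230.2 CPM at 1, 2, 4 and 6 h and missed the threshold (log2 fold change 1.31 ± 0.37 SE, adjusted p = 0.0895), as did Nfkbiz, a nuclear IkB protein needed for secondary response genes, with 4.76 CPM in NT and 80.1, 154, 90.5 and 40.9 CPM at 1, 2, 4 and 6 h (log2 fold change 3.70 ± 1.14 SE, adjusted p = 0.123). The subunit Rel had the lowest value of the list (log2 fold change 0.16 ± 0.73 SE, adjusted p = 0.95).

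None of the immediate early genes was called against NT. Of 25 tested (28 in the list) 0 were called late or early, and the median log2 ratio to NT was 1.04, 0.93, 0.49 and 0.19 at 1, 2, 4 and 6 h, where that of all genes tested was 0.00, -0.02, -0.01 and 0.00. Egr1, a growth-factor-induced transcription factor, had 42.8 CPM in NT and 122, 34.0, 15.5 and 8.19 CPM at 1, 2, 4 and 6 h. Nr4a1, an orphan nuclear receptor, had 7.14 CPM in NT and 46.0, 97.3, 33.1 and 10.2 CPM at 1, 2, 4 and 6 h. Dusp1, the phosphatase that switches off MAP kinases, had 14.3 CPM in NT and 64.1, 27.2, 24.3 and 12.3 CPM at 1, 2, 4 and 6 h. Egr1 and Dusp1 were highest at 1 h and Nr4a1 at 2 h, and all 3 were far below that level at 6 h.

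**Figure D4:**
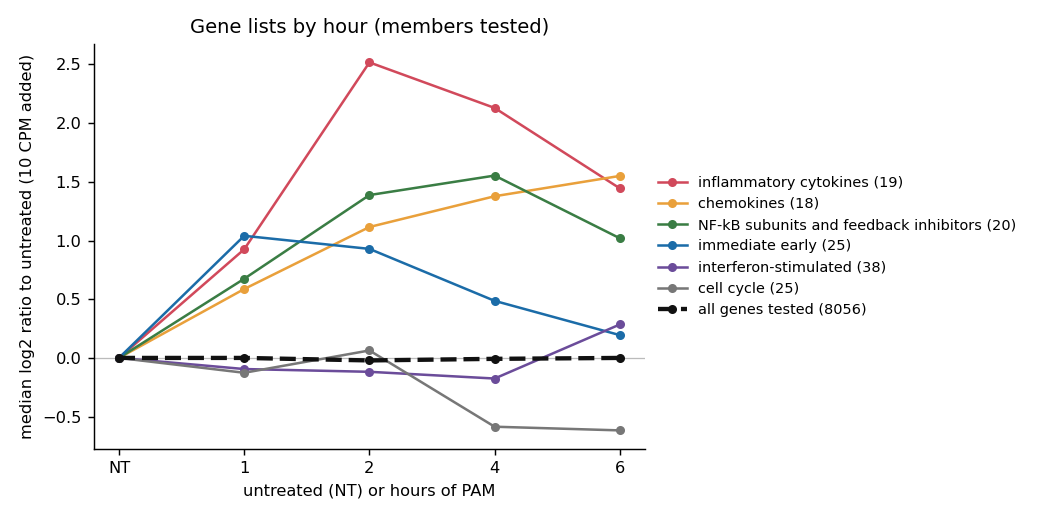
Median log2 ratio to NT (vertical axis, 10 CPM added) of the tested members of 6 gene lists and of all 8056 genes tested at each hour of PAM, with the number of members in the legend and NT set at 0. The cytokine median is highest at 2 h (2.52), that of immediate early genes at 1 h (1.04), and that of interferon-stimulated genes stays between -0.18 and 0.29.

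In the TLR2 pathway 1 surface protein passed the test. Of 17 tested members (18 in the list) 1 rose late and 0 fell, with a median of 0.58. The riser was Cd14, the surface protein that hands lipopeptide and LPS to their receptors, which had 167 CPM in NT and 334, 917, 1066 and 1007 CPM at 1, 2, 4 and 6 h (log2 fold change 2.64 ± 0.52 SE, adjusted p = 0.0142). Tlr2 itself had 238 CPM in NT and 444, 566, 347 and 422 CPM at 1, 2, 4 and 6 h (log2 fold change 0.69 ± 0.32 SE, adjusted p = 0.363). Cd36, a scavenger receptor that assists TLR2, had 193 CPM in NT and 228, 414, 581 and 551 CPM at 1, 2, 4 and 6 h (log2 fold change 1.55 ± 0.41 SE, adjusted p = 0.0664). Tlr1 lay at 17.7 to 36.8 CPM in the 5 libraries, and Tlr6, the partner for diacylated lipopeptides, lay at 4.00 to 12.3 CPM and did not pass the filter on low counts. Of the signalling members, the kinase Irak2 had 38.1 CPM in NT and 46.0, 92.8, 104 and 69.6 CPM at 1, 2, 4 and 6 h. Map3k8 (TPL2), a kinase upstream of ERK, had 7.14 CPM in NT and 32.0, 34.0, 50.8 and 24.6 CPM at 1, 2, 4 and 6 h. Myd88 had 219 CPM in NT and 136, 161, 155 and 145 CPM at 1, 2, 4 and 6 h. None of them was called. The remaining members Tirap, Irak1, Irak4, Traf6, Tab2, Map3k7, Chuk, Ikbkb, Ikbkg and Tollip had late log2 fold changes between -0.54 (Map3k7) and 0.90 (Ikbkb). Among 11 other sensing genes, Tlr4 fell, with 102 CPM in NT and 64.1, 52.1, 28.7 and 28.7 CPM at 1, 2, 4 and 6 h (log2 fold change -1.82 ± 0.40 SE, adjusted p = 0.0256).

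Of 18 genes of dendritic cell maturation tested (20 in the list) 0 were called late, and the median was 1.15. Ccl22, a chemokine for regulatory and helper T cells, had 5391 CPM in NT and 6533, 9801, 21626 and 20498 CPM at 1, 2, 4 and 6 h (log2 fold change 1.97 ± 0.76 SE, adjusted p = 0.25). Fscn1, the actin bundler of dendrites, had 916 CPM in NT and 1337, 1576, 4146 and 2845 CPM at 1, 2, 4 and 6 h. Cd86, a costimulatory ligand, had 71.4 CPM in NT and 52.0, 138, 212 and 88.0 CPM at 1, 2, 4 and 6 h, highest at 4 h and near NT at 6 h. Of 13 MHC class II genes, all tested, 0 were called and the median was 0.10. H2-Ab1 had 992 CPM in NT and 1233, 1433, 2133 and 1515 CPM at 1, 2, 4 and 6 h. H2-DMa, part of the peptide-loading chaperone, had 547 CPM in NT and 516, 491, 415 and 249.7 CPM at 1, 2, 4 and 6 h.

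Effector enzymes and secreted proteins added several late calls. Of 15 tested genes of prostaglandin, nitric oxide and itaconate metabolism (17 in the list) 2 rose late and 0 fell (median 1.62). Slc7a2, an arginine transporter, had 19.0 CPM in NT and 38.0, 156, 163 and 276 CPM at 1, 2, 4 and 6 h (log2 fold change 3.51 ± 0.88 SE, adjusted p = 0.0497). Sod2, the mitochondrial superoxide dismutase, had 445 CPM in NT and 534, 1071, 1358 and 1766 CPM at 1, 2, 4 and 6 h (log2 fold change 1.81 ± 0.43 SE, adjusted p = 0.0394). Irg1, the enzyme that makes itaconate, had 183 CPM in NT and 440.4, 1417, 1327 and 1089 CPM at 1, 2, 4 and 6 h (log2 fold change 2.72 ± 0.79 SE, adjusted p = 0.103). Ptgs2, the inducible cyclooxygenase, had 0 counts untreated and 12.0, 88.3, 77.3 and 53.2 CPM at 1, 2, 4 and 6 h. Of 14 tested matrix proteases and inhibitors (18 in the list) 2 rose (median 0.86), Mmp13 (log2 fold change 6.92 ± 1.15 SE, adjusted p = 0.00487) and Timp1 (log2 fold change 3.05 ± 0.57 SE, adjusted p = 0.00997). The fitted value of Mmp13 rests on an untreated count of 1. Of 10 tested acute-phase genes (15 in the list) 1 rose (median 1.06), Ptx3, a soluble pattern receptor, with 90.4 CPM in NT and 262, 1134, 909.6 and 639 CPM at 1, 2, 4 and 6 h (log2 fold change 3.09 ± 0.74 SE, adjusted p = 0.0425). Lcn2, a siderophore-binding protein that neutrophils also carry, had 647 CPM in NT and 753, 939, 2011 and 1869 CPM at 1, 2, 4 and 6 h (log2 fold change 1.58 ± 0.41 SE, adjusted p = 0.0641), in the hours where the granulocyte lists diverged, and it is a member of the neutrophil list as well.

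Of the 24 late lower genes 22 were in none of the lists (91.7%), near the 95.2% of all genes tested that are in none. In 22 of the 24 both late libraries lay below NT, 1 h and 2 h, which choosing genes with low late values favours. The same share over all genes tested was not taken. Ccnd1 (cyclin D1), a driver of cell cycle entry, had 99.9 CPM in NT and 94.1, 43.0, 13.2 and 20.5 CPM at 1, 2, 4 and 6 h (log2 fold change -2.54 ± 0.54 SE, adjusted p = 0.0218). Mcm7, a subunit of the replicative helicase, had 90.4 CPM in NT and 46.0, 47.5, 17.7 and 20.5 CPM at 1, 2, 4 and 6 h (log2 fold change -2.22 ± 0.43 SE, adjusted p = 0.0135) and was the 1 of 25 tested cell cycle genes (26 in the list) called. The cell cycle median was -0.61. Mcm6 had 140.4 CPM in NT and 174, 147, 64.0 and 38.9 CPM at 1, 2, 4 and 6 h (log2 fold change -1.45 ± 0.39 SE, adjusted p = 0.0785). Mki67, a marker of dividing cells, had 35.7 CPM in NT and 68.1, 95.1, 30.9 and 51.2 CPM at 1, 2, 4 and 6 h (log2 fold change 0.21 ± 0.62 SE, adjusted p = 0.919). Further late lower genes were Psip1, a chromatin reader (log2 fold change -2.31 ± 0.53 SE, adjusted p = 0.0339), Asgr2 (log2 fold change -2.26 ± 0.48 SE, adjusted p = 0.0233), and Prkacb, a catalytic subunit of protein kinase A (log2 fold change -2.21 ± 0.53 SE, adjusted p = 0.0411). Of the late higher genes, Slx1b and Giyd1, named after their values were seen, carry identical counts and stand for 1 signal.

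The transcription factors Cebpb and Irf8, which other samples of the study alter by knockdown or overexpression, were not called against NT. Cebpb, a C/EBP factor of myeloid inflammatory genes, had 307 CPM in NT and 532, 1016, 775 and 682 CPM at 1, 2, 4 and 6 h (log2 fold change 1.25 ± 0.37 SE, adjusted p = 0.106). Irf8, an interferon regulatory factor of dendritic cell development, had 155 CPM in NT and 202, 195, 227 and 248 CPM at 1, 2, 4 and 6 h (log2 fold change 0.62 ± 0.35 SE, adjusted p = 0.477). Of 7 C/EBP family genes and 8 IRF family genes tested (7 and 9 in the lists) 0 were called late, with medians of 0.59 and 0.20. Cebpd had 42.8 CPM in NT and 42.0, 113, 185 and 190.4 CPM at 1, 2, 4 and 6 h. Irf1, an early interferon and NF-kB target, had 33.3 CPM in NT and 132, 152, 117 and 119 CPM at 1, 2, 4 and 6 h.

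Late against early PAM, which does not use NT, called 3 genes higher (0.0372%) and 0 lower, with 791 genes at an unadjusted p below 0.05. Cav1 had 183 and 178 CPM at 4 and 6 h, against 14.0 and 34.0 CPM at 1 and 2 h (log2 fold change 2.92 ± 0.39 SE, adjusted p = 0.000488). Slco3a1, an organic anion transporter, had 121 and 119 CPM at 4 and 6 h, against 16.0 and 24.9 CPM at 1 and 2 h (log2 fold change 2.55 ± 0.35 SE, adjusted p = 0.000488). Acpp, prostatic acid phosphatase, had 194 and 544 CPM, against 52.0 and 77.0 CPM (log2 fold change 2.52 ± 0.44 SE, adjusted p = 0.0133). In all 3 the pairs did not overlap, which choosing called genes favours. Without the 1 h library 0 genes were called, and without 2 h 18 were higher and 7 lower. DESeq2 called 7 higher and 6 lower, and it gave no adjusted p for Cav1.

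LPS was compared at the same dose and hours. At 4 and 6 h PAM called 72 genes higher (0.894%) and 288 lower (3.57%; 4.47% in either direction) than LPS, a contrast that does not use NT. Column totals gave 127 higher and 240 lower, with the median of all genes at 0.24 in place of 0.03, and DESeq2 gave 31 higher and 234 lower. Of the 288 lower genes 37 were in the interferon-stimulated list and 230 in no list (79.9%, against 95.2% of all genes tested). As the lists were chosen with earlier results of these data known, this contrast does not test them. Of the 38 interferon-stimulated genes tested (40 in the list), 0 were higher and 37 lower with PAM, and their median log2 fold change was -3.99, against 0.03 over all genes. Against NT, 0 of the 38 were called with late PAM (median 0.12). The filter of 20 CPM in at least 4 libraries took in all stimulation libraries. Members could therefore pass it on LPS, CpG or pDC values alone. Of 39 members with counts, 9 reached 100 CPM in NT or a PAM library. For members near the floor in both, the test against NT cannot resolve a change. Passing on high LPS values also favours a lower level with PAM, so the 37 may in part follow from the filter. How many passed that way was not taken. The list summed to 1667 and 2305 CPM at 4 and 6 h of PAM, against 35580 and 36500 CPM at 4 and 6 h of LPS, and it had 1639 CPM in NT. Late counts also depend on single libraries, from 138 calls without 4 h of PAM, 153 without 6 h of PAM and 165 without 6 h of LPS to 196 without 4 h of LPS.

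Single genes of the list, and Irf8 beside them, had these values. Cxcl10, the chemokine induced by interferon, had 4.42 and 12.3 CPM at 4 and 6 h of PAM, against 3213 and 2608 CPM at 4 and 6 h of LPS (log2 fold change -8.37 ± 1.12 SE, adjusted p = 9.33e-05). Rsad2 (viperin), an antiviral radical enzyme, had 22.1 and 55.3 CPM at 4 and 6 h of PAM, against 6925 and 5784 CPM at 4 and 6 h of LPS (log2 fold change -7.34 ± 1.17 SE, adjusted p = 0.000368). Ifit1, a binder of foreign RNA, had 6.62 and 16.4 CPM at 4 and 6 h of PAM, against 1413 and 930.3 CPM at 4 and 6 h of LPS (log2 fold change -6.62 ± 1.07 SE, adjusted p = 0.000424). Usp18, the deconjugase that restrains interferon signalling, had 55.2 and 111 CPM at 4 and 6 h of PAM, against 1232 and 1466 CPM at 4 and 6 h of LPS (log2 fold change -4.01 ± 0.90 SE, adjusted p = 0.00756). Irf7, the factor that amplifies interferon, had 17.7 and 36.8 CPM at 4 and 6 h of PAM, against 749 and 1148 CPM at 4 and 6 h of LPS (log2 fold change -5.10 ± 0.78 SE, adjusted p = 0.000264). Irf8 had 227 and 248 CPM at 4 and 6 h of PAM, against 524 and 683 CPM at 4 and 6 h of LPS (log2 fold change -1.35 ± 0.27 SE, adjusted p = 0.00316). In these genes the PAM and LPS pairs did not overlap, which choosing called genes favours. Ifnb1, interferon beta itself, had 0 counts in NT and in all 4 PAM libraries, and 8.24, 51.1 and 18.4 CPM at 1, 2 and 4 h of LPS and 0 counts at 6 h.

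**Figure D5:**
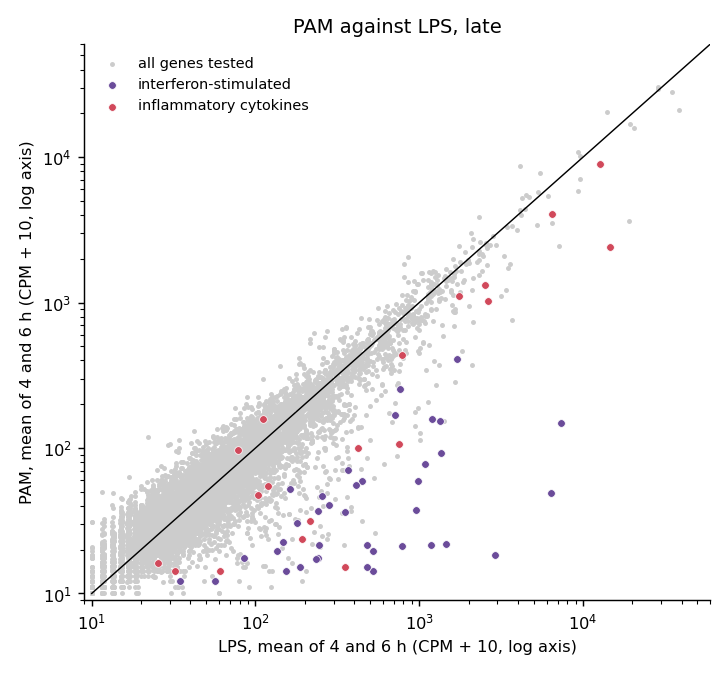
Mean TMM-scaled CPM at 4 and 6 h of PAM (vertical) against the mean at 4 and 6 h of LPS (horizontal), both with 10 CPM added and on log axes, 1 point per gene tested, with the line of equality. Interferon-stimulated genes lie far below the line (median log2 fold change -3.99), while most cytokines lie nearer to it, at higher levels.

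The promoters of 3 interferon-stimulated genes that were low with PAM are shown with the interferon-stimulated response element (ISRE, a pair of GAAA repeats with 2 bases of any kind between them, searched on both strands) in capitals. A match on the opposite strand reads as its reverse complement, as in Rsad2 and Ifit1. They are printed on the gene's strand, from RefSeq (GRCm38.p6). Cxcl10 is on the minus strand at chr5:92348840-92349139, Rsad2 on the minus strand at chr12:26456403-26456702 and Ifit1 on the plus strand at chr19:34640639-34640938.
Cxcl10: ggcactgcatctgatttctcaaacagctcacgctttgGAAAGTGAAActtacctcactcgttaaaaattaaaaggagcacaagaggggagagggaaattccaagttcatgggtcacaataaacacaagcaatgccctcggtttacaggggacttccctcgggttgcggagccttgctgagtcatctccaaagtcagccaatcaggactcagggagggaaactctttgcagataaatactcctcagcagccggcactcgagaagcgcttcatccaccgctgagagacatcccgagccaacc
Rsad2: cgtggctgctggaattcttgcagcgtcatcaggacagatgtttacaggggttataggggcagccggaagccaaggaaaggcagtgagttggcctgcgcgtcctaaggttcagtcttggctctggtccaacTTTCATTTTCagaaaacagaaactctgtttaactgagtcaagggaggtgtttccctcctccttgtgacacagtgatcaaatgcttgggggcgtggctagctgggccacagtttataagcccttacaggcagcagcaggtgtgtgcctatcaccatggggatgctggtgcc
Ifit1: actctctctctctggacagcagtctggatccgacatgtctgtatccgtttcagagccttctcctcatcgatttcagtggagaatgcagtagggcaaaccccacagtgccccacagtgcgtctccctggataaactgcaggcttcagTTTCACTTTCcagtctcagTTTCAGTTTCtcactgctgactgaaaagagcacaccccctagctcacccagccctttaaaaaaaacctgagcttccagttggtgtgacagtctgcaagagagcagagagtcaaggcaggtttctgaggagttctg
Cxcl10 also holds the kB consensus. Of 39 members of the list, 27 had a promoter in the table and 16 of those (59.3%) held the ISRE, against 3.99% of all genes with a promoter. Among genes that passed a fold of 4 with PAM, the ISRE was in 1 of 24 promoters (4.17%) of those highest at 1 or 2 h, in 1 of 25 (4%) of those highest at 4 h and in 5 of 15 (33.3%) of those highest at 6 h. The AP-1 motif, also searched, was in 3 of 24 (12.5%), 2 of 25 (8%) and 5 of 15 (33.3%) of the same sets. It was in 8 of 27 (29.6%) of the interferon-stimulated list and in 8.97% of all genes with a promoter. Gbp2, an interferon-induced GTPase, was the 1 list member past that fold, with 26.2 CPM in NT and 28.0, 58.9, 115 and 201 CPM at 1, 2, 4 and 6 h, and it too was lower than with LPS (115 and 201 CPM at 4 and 6 h of PAM, against 483 and 917 CPM at 4 and 6 h of LPS).

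Cytokines and chemokines were also lower with PAM in part. Of 19 inflammatory cytokines 0 were higher and 5 lower with PAM than with LPS (median -1.31), and of 18 chemokines 0 were higher and 4 lower (median -0.75), where 3.57% of all genes tested were lower. Il1b had 9067 and 8896 CPM at 4 and 6 h of PAM, against 14063 and 11327 CPM at 4 and 6 h of LPS (log2 fold change -0.50 ± 0.54 SE, adjusted p = 0.707). Tnf had 5150.5 and 3003 CPM at 4 and 6 h of PAM, against 8858 and 4122 CPM at 4 and 6 h of LPS (log2 fold change -0.67 ± 0.50 SE, adjusted p = 0.543). Neither was called. Il15 had 8.83 and 18.4 CPM at 4 and 6 h of PAM, against 207 and 157 CPM at 4 and 6 h of LPS (log2 fold change -3.69 ± 0.69 SE, adjusted p = 0.00156). Nos2, the inducible nitric oxide synthase, had 24.3 and 18.4 CPM at 4 and 6 h of PAM, against 277 and 593 CPM at 4 and 6 h of LPS (log2 fold change -4.34 ± 0.48 SE, adjusted p = 2.59e-05). Ptgs2 had 77.3 and 53.2 CPM at 4 and 6 h of PAM, against 398 and 330.4 CPM at 4 and 6 h of LPS (log2 fold change -2.48 ± 0.57 SE, adjusted p = 0.00881). Il12b had 2620.5 and 2168 CPM at 4 and 6 h of PAM, against 13340 and 15995 CPM at 4 and 6 h of LPS, groups that did not overlap but missed the threshold (log2 fold change -2.62 ± 0.89 SE, adjusted p = 0.103). A missed threshold does not show that the ligands act alike. Of the 89 genes past a fold of 4 with PAM, 4 were called lower with PAM than with LPS, 0 higher and 85 neither; the 4, named after their values were seen, were Gbp2, Gbp5, Ccrl2 and Rgs1.

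Among the 72 genes higher with PAM than with LPS, 66 had a late LPS mean below NT. In 25 of the 72 the late PAM mean lay below NT. The 72 were chosen for LPS values below those of PAM, which favours a low LPS mean. Likewise, in all 288 lower genes the late LPS mean lay above NT, and in 142 of them the late PAM mean did. The same shares over all genes tested were not taken. Cebpa, a C/EBP factor of myeloid precursors, had 88.3 and 104 CPM at 4 and 6 h of PAM, against 11.1 and 28.9 CPM at 4 and 6 h of LPS (log2 fold change 2.22 ± 0.52 SE, adjusted p = 0.0108), with 35.7 CPM in NT. Cd36 had 581 and 551 CPM at 4 and 6 h of PAM, against 273 and 241 CPM at 4 and 6 h of LPS (log2 fold change 1.14 ± 0.31 SE, adjusted p = 0.0338), and with 193 CPM in NT it was above NT with both ligands. Scd2, a fatty acid desaturase, had 66.2 and 139 CPM at 4 and 6 h of PAM, against 25.8 and 22.5 CPM at 4 and 6 h of LPS (log2 fold change 2.09 ± 0.53 SE, adjusted p = 0.0193). Rab3il1, an exchange factor for Rab proteins, had 110.4 and 108 CPM at 4 and 6 h of PAM, against 14.8 and 9.62 CPM at 4 and 6 h of LPS (log2 fold change 3.15 ± 0.67 SE, adjusted p = 0.00465). In these genes the ligand pairs did not overlap, which choosing called genes favours. The neutrophil and granule list summed to 18310 and 9267 CPM at 4 and 6 h of PAM, against 16710 and 14780 CPM at 4 and 6 h of LPS. The list for basophils, mast cells and eosinophils summed to 3881 and 1726 CPM at 4 and 6 h of PAM, against 3829 and 3554 CPM at 4 and 6 h of LPS, and their part in these differences was not tested.

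At 1 and 2 h the test separated no gene between PAM and LPS: 0 genes were called higher or lower (0%), while 329 of 8056 had an unadjusted p below 0.05, and DESeq2 called 0. The interferon-stimulated list had a median of -1.15 there and summed to 1549 and 1671 CPM at 1 and 2 h of PAM, against 2098 and 8127 CPM at 1 and 2 h of LPS. Without the 1 h LPS library 7 genes were called, all lower with PAM, and with time as a block 1 was higher and 23 lower.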

How the data were processed

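Values were whole-number counts per gene symbol, deposited by the authors for 3′-end mRNA libraries. Per the submitters' processing notes, TopHat and mouse build mm9 were used. How reads were counted, including strand and multiple matches, is not given in the sources. Of 21637 symbols, 21400 matched RefSeq names; a row with no gene name (0.470 to 0.889% of counts) was left out. The 32 stimulation libraries, grouped by cell type, ligand and window, were fitted in edgeR 4.0.16 (R 4.3.3; TMM scaling, quasi-likelihood test, 14 residual degrees of freedom) after a filter of at least 20 CPM in at least 4 libraries. The 16 moDC libraries share this estimate of the spread with the pDC libraries. Each SE was derived from the test, as the size of the log2 fold change divided by the square root of its F value. Hourly ratios used 10 CPM added, and intervals are exact binomial or Poisson and cover counting error only. Genes named are, by rule, the 10 largest changes per direction of each test and hour, up to 8 members per list with the widest range plus the 1 most against it, the whole TLR2 pathway, Cebpb and Irf8; cell type markers and the genes said to be chosen later are outside it. The members and lists were chosen with earlier results of these data known. Alternatives were DESeq2 1.42.0, other scalings, filters, folds and pseudocounts, a smaller set of libraries, a time block and leaving out libraries. Scripts were tested on simulated data.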

Additional observations from a re-analysis of the deposited data

Results flagged for a closer look

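Tests of a difference between effects, added after the data were seen and run over 8056 genes with edgeR's quasi-likelihood test, called 3 genes in which PAM against LPS in moDC differed between the late and early pairs, and 706 had an unadjusted p below 0.05. Pttg1 (securin) had 26.6 CPM at 6 h of PAM, against 260 CPM at 6 h of LPS, but 65.6 CPM at 2 h of PAM, against 54.1 CPM at 2 h of LPS. Its difference in log2 fold change, late minus early, was -3.29 ± 0.61 (SE, adjusted p = 0.0439). Nmi, an interferon-inducible partner of Myc family proteins, gave -3.06 ± 0.53 (adjusted p = 0.0433), and Ifitm3, an antiviral membrane protein, -2.32 ± 0.44 (adjusted p = 0.0439). In all 3 the late PAM libraries lay below the late LPS libraries.

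The late PAM response differed between moDC and pDC in 3 genes as well, with 696 at an unadjusted p below 0.05. Cebpa had 88.3 and 104.4 CPM at 4 and 6 h of PAM in moDC, against 35.7 CPM in NT, while pDC had 8.93 and 11.0 CPM, against 99.0 CPM in NT (difference 4.70 ± 0.86, adjusted p = 0.0297). Asb2, a ubiquitin ligase subunit, moved the other way (-4.69 ± 0.85, adjusted p = 0.0297), with 55.2 and 32.8 CPM late in moDC, against 85.6 CPM in NT, and 139.8 and 145.2 CPM late in pDC, against 10.5 CPM in NT. Fabp5, a fatty acid binding protein, did likewise (-3.11 ± 0.54, adjusted p = 0.0297).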

How the results depend on the processing

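No named gene's call changed sign under the alternatives run. Leaving out 1 library leaves a single library in a group, and many named calls were then lost. Named late PAM-against-LPS genes lost the call in fewer such refits than they kept it. Named genes called late against NT lost the call in more such refits than they kept it. Slc7a2 and Prkacb each lost it in 4 alternatives. For some named genes, among them Cav1, Irak3, Cxcl5, Csf3 and Tlr4, DESeq2 gave no adjusted p. Those fits were left out and are not counted as lost calls. DESeq2 gave 16 early and 13 late-against-early calls. Column totals gave 11 late-against-early calls, 2 genes lower at 2 h, 39 higher and 9 lower at 4 h, and highest hours of 1 h for 2 and of 4 h for 16 genes. Without a filter there were 230 late, 72 early, 85 late-against-early and 29 early PAM-against-LPS calls. A filter of 50 CPM in 2 libraries gave 10 late-against-early calls. The 16 moDC libraries alone gave 121 late, 5 late-against-early and 1 early PAM-against-LPS call, and time as a block gave 24 early PAM-against-LPS calls. With 1 CPM added, 3 genes were lower at 2 h, 5 lower at 4 h and 2 highest at 1 h. From 50 CPM, 7 were lower at 4 h, 8 lower at 6 h and 2 highest at 1 h. At a fold of 2 the higher and lower genes were 48 and 3 at 1 h, 201 and 38 at 2 h, 261 and 66 at 4 h and 215 and 84 at 6 h, with 10, 113, 149 and 112 highest at 1, 2, 4 and 6 h. Leaving out 1 library gave 13 to 31 late, 1 to 14 early, 0 to 25 late-against-early, 138 to 196 late PAM-against-LPS and 0 to 7 early PAM-against-LPS calls. The causes were not tested. The hour pairs PAM with LPS, and time as a block gave 466 late PAM-against-LPS calls. No paired analysis was possible against NT because it is 1 library with no replicate number. At about 2 CPM per count, genes near the floor cannot be resolved.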
